A study of Mus musculus with 8 samples.

Results

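The 9 genes that build or maintain the myelin sheath and are described here are Mbp, Mag, Mog, Mobp, Cnp, Cldn11, Mal, Opalin and Ermn. They are 9 of the 54232 genes in the deposited feature lists, were matched by gene symbol, and were all found and all tested. The nuclei came from perilesional forebrain of male Swiss Webster mice aged 10 weeks. Mice in 4 groups had control surgery, BCAS surgery, TBI surgery, or both surgeries (BCAS+TBI). The study's title ties these to cerebral hypoperfusion and traumatic brain injury; what the control surgery was, the time after surgery and the number of animals behind a library are not given in the sources used here. Each group had 2 libraries that the labels call biological replicates, so p-values measure the spread between libraries. Single-nucleus libraries hold mainly nuclear RNA and were counted from the 3′ end of transcripts, as unique molecular identifiers (UMIs), each of which stands for 1 captured RNA molecule.

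Oligodendrocytes wrap axons in many turns of membrane, and the 9 genes serve different layers of that wrap. MBP holds the cytoplasmic faces of compact myelin together, MOBP lies in the same compact layers, and MAL is a proteolipid that sorts lipid-rich membrane to the sheath. Claudin-11 (Cldn11) forms the tight junction strands between the turns, MAG is the adhesion protein facing the axon, and MOG lies on the outermost surface. CNP keeps cytoplasmic channels open within the sheath, ermin (Ermn) binds actin in those channels, and opalin is a membrane glycoprotein of mature oligodendrocytes in the central nervous system. On GRCm38 (GENCODE M21 annotation) Mag lies at chr7:30899176-30914873, Mog at chr17:37010743-37023398, Mobp at chr9:120149707-120181484, Cnp at chr11:100574904-100591729, Cldn11 at chr3:31149920-31164324, Opalin at chr19:41061710-41077113, and Mal and Ermn on the same chromosome at chr2:127633226-127656695 and chr2:58045113-58052864. Mbp has the longest gene body of the 9 at 110 kb, against 7.75 to 31.8 kb for the rest. Its 14 annotated coding transcripts start at sites spread over 79.4 kb, and a 3′ count does not tell them apart.

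Oligodendrocytes were picked without the myelin genes, by UMIs of St18, Prr5l and Aspa. A nucleus passed with at least 2 of these 3 genes detected and a summed level of at least 1000 CPM (counts per 1000000 UMIs) of the 3. Of 45560 nuclei kept, 3708 passed (8.14%). Of these, 2237 lay in the single cluster named oligodendrocyte-like, where 89.7% of all nuclei passed. Another 1297 (35.0%) lay in 2 unnamed clusters that carry oligodendrocyte genes beside neuronal RNA. These mixed nuclei had a median of 8393 UMIs, against 1412 in the oligodendrocyte-like cluster, median doublet scores of 0.144 and 0.123, and held 83.5% of the UMIs of all gated nuclei. Levels over all gated nuclei therefore stand beside levels in the gated nuclei of the oligodendrocyte-like cluster, called cluster oligodendrocytes below.

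The 8 libraries held 6191 to 7882 barcodes each, where about 3000 droplets per library were aimed for, and 28118725 to 56135192 UMIs. They fell into a set of 4 with fewer UMIs (set 1: control 1, BCAS 1, TBI 1 and BCAS+TBI 2) and a set of 4 with more (set 2: control 2, BCAS 2, TBI 2 and BCAS+TBI 1). Each group has 1 library in each set. The share of mitochondrial UMIs was 1.20% to 2.77% in set 1 and 0.511% to 1.04% in set 2. TBI 2 stood apart: 217 of its nuclei passed the gate (3.03%), against 7.85% to 11.0% in the other libraries, and 14.7% of those lay in the mixed clusters, against 32.4% to 46.6% elsewhere. Barcode sequences found in 2 libraries numbered 206, and 1 was found in 3.

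The myelin genes were abundant in gated nuclei of every library. The compact myelin gene Mbp stood at 1425 and 1446 CPM in the control libraries, 1153 and 1287 in BCAS, 1666 and 2573 in TBI, and 1372 and 1526 in BCAS+TBI. TBI 2 had the highest value and TBI 1 the next, and the rest lay at 1153 to 1526 CPM. In cluster oligodendrocytes Mbp was at 4326 and 4379 CPM in control, 3942 and 4033 in BCAS, 4213 and 4025 in TBI, and 4223 and 4313 in BCAS+TBI. The high value of TBI 2 is not there, and the libraries span 3942 to 4379. Those counts rest on 1060 to 3381 Mbp UMIs per library, and 97.8% of cluster oligodendrocytes had at least 1 Mbp UMI.

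Mobp, the other compact myelin protein gene, stood at 1119 to 1667 CPM in cluster oligodendrocytes. Mal, the proteolipid gene, varied most among libraries: 1385 and 1084 CPM in control, 1945 and 745 in BCAS, 1822 and 672 in TBI, and 888 and 2148 in BCAS+TBI. Every group holds a high and a low library, and the groups overlap. Mag, the adhesion gene, showed the same arrangement with 1583 and 1220 CPM in control, 1722 and 989 in BCAS, 1479 and 933 in TBI, and 1082 and 1653 in BCAS+TBI. Mog stood at 873 to 1578 CPM, Cldn11 at 563 to 974, Opalin at 219 to 553 and Ermn at 211 to 602. Cnp, which encodes the channel protein, stood at 475 and 280 CPM in control, 580 and 283 in BCAS, 685 and 264 in TBI, and 257 and 559 in BCAS+TBI. The lower library of each group in these Mal, Mag and Cnp values is the library of set 2.

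**Figure D1:**
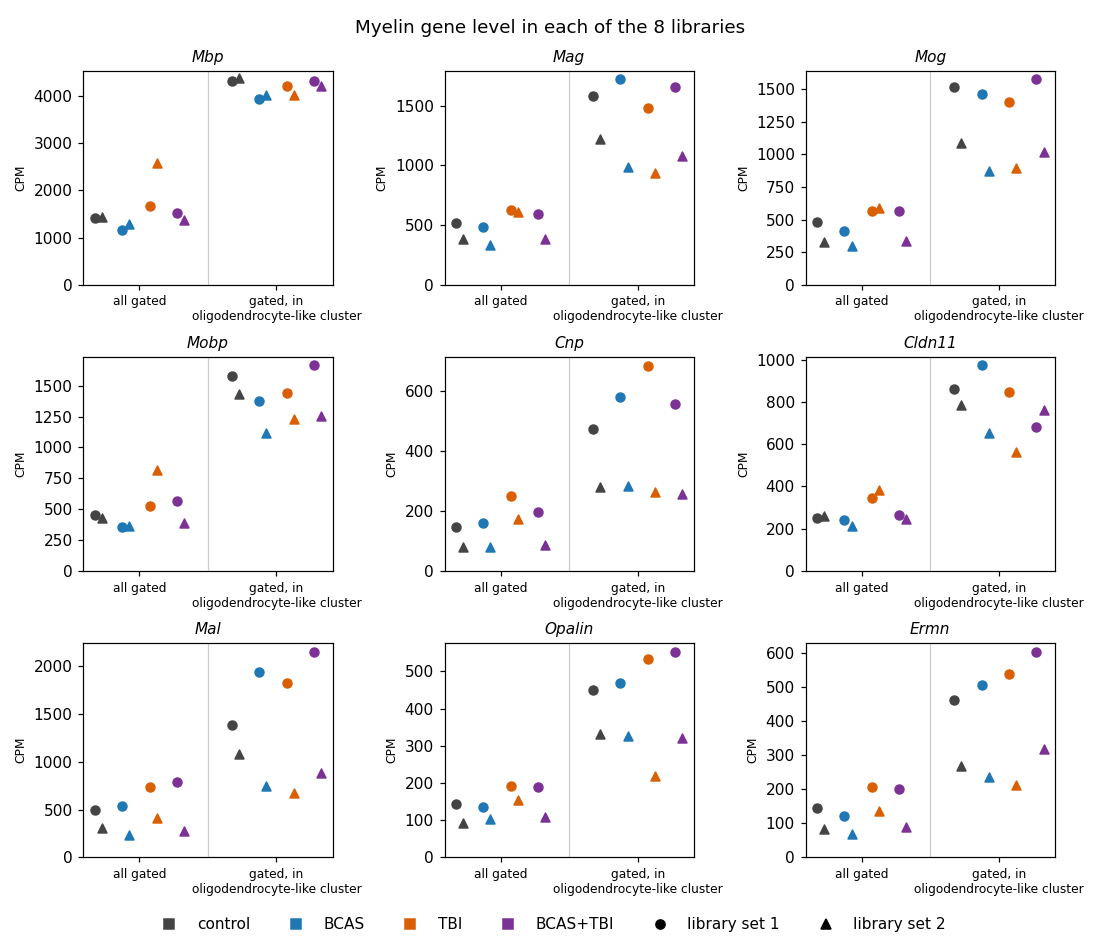
CPM (UMIs per 1000000) of each of the 9 genes in each library, in all gated nuclei (left of the line) and in gated nuclei of the oligodendrocyte-like cluster (right); colours are groups, circles are set 1 libraries and triangles set 2 libraries, with 2 points a group. Within the cluster, Mbp spans 3942 to 4379 CPM, while Mal and Cnp split by library set in every group.

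The first question was whether TBI surgery went with a different myelin gene level. In all gated nuclei the 9 members had log2 differences of 0.35 to 0.61 for TBI averaged over BCAS, all above 0. None passed an adjusted p of 0.05 in edgeR's quasi-likelihood test, where 0% of the 16254 genes tested in the gate passed (smallest adjusted p among members 1.000). At an unadjusted p under 0.05 stood 2 members, Mobp (0.50 ± 0.22 SE, unadjusted p = 0.0463 in edgeR) and Cldn11 (0.35 ± 0.15, unadjusted p = 0.0479), beside 1.64% of all genes. The 4 TBI-surgery libraries overlapped the other 4 for Mbp, at 1372 to 2573 against 1153 to 1446 CPM. The direction was shared by other oligodendrocyte genes: the median over the 9 members was 0.44, against 0.01 over all genes of the gate, and all 20 listed other myelin and membrane genes were also above 0, with a median of 0.32.

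In cluster oligodendrocytes those differences were smaller. The 9 members had log2 differences of -0.19 (Cldn11) to 0.20 (Ermn) for TBI, 6 above 0 and 3 below, with a median of 0.03. Mbp differed by 0.01 ± 0.18 (SE), with a 95% interval of -0.39 to 0.41. With the library set as a block the spread narrowed, and Mbp gave 0.01 ± 0.09 with an interval of -0.19 to 0.20. Intervals of the other members then lay between -0.45 and 0.44, so differences beyond these bounds fall outside the 95% intervals of this fit. No member passed in either fit (0% of 8013 genes called in each), and 0 members stood at an unadjusted p under 0.05, beside 0.786% of genes without the block and 3.56% with it (edgeR). In the whole gate the same block left the differences at 0.35 to 0.56, with every member at an unadjusted p under 0.05 beside 8.28% of all genes, and again none passed the adjusted threshold (smallest adjusted p 0.405, Ermn, edgeR). The share of mixed nuclei moves with this comparison, through 14.7% in TBI 2 and 32.4% to 46.6% in the others. Mixed nuclei held 75.7% and 47.6% of the gated UMIs in TBI 1 and TBI 2. They held 84.9% and 81.8% in BCAS+TBI 1 and BCAS+TBI 2, and 83.7% to 90.6% in the libraries without TBI. The part of this share in the difference of the whole gate was not tested apart from the values just given. Without TBI 2, which leaves the lower UMI share of TBI 1 in place, the differences of the whole gate were 0.22 to 0.72. They were 0.03 to 0.38 without BCAS+TBI 2, and 0.03 to 0.36 once nuclei above 3 times their class's median depth were left out.

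For BCAS averaged over TBI the 9 members had log2 differences of -0.38 to -0.09 in all gated nuclei, all below 0, and none passed (0% of genes called). At an unadjusted p under 0.05 stood 0 members in edgeR, beside 1.10% of genes. DESeq2 also gave 0 members, and its share over all genes is not given here. Other oligodendrocyte genes shared the direction. Of the 20 listed other myelin and membrane genes 19 were below 0 (median -0.20), as were all 10 lipid synthesis genes (median -0.28). The median was -0.26 over the members and 0.003 over all genes of the gate. The smallest unadjusted p among members was 0.0629, for Cldn11 (-0.33 ± 0.15, edgeR, unadjusted). In cluster oligodendrocytes the range was -0.07 (Mobp) to 0.20 (Mal), with 6 above 0, 3 below and a median of 0.01, and 0 members were called or stood at an unadjusted p under 0.05 (0.799% of genes). With the set block Mbp differed there by -0.03 ± 0.09, within -0.23 to 0.16, and again 0 members stood under 0.05 unadjusted (3.31% of genes). In the whole gate with the set block 5 members stood at an unadjusted p under 0.05, beside 6.24% of genes, and 0 were called, beside 0.00615% of genes. The interaction of the 2 surgeries, BCAS+TBI against control and BCAS+TBI against TBI called no member either, beside 0% of genes in each. At an unadjusted p under 0.05 in edgeR stood 0, 0 and 1 members in all gated nuclei, beside 0.535%, 0.498% and 1.41% of genes, and 0 in each in cluster oligodendrocytes, beside 1.24%, 0.761% and 0.948%. The interaction was -0.68 to -0.003 over the members in all gated nuclei and -0.37 to 0.45 in cluster oligodendrocytes. Against control, BCAS+TBI gave 0.03 to 0.41 over the members in all gated nuclei and -0.19 to 0.35 in cluster oligodendrocytes. Against TBI alone, BCAS+TBI gave -0.59 to -0.12 and then -0.21 to 0.31. These 2 comparisons share the BCAS+TBI libraries. With 2 libraries a group, the intervals of the whole gate for single groups reach from -1.59 to 1.61, so differences of that size lie within the intervals at this replication.

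**Figure D2:**
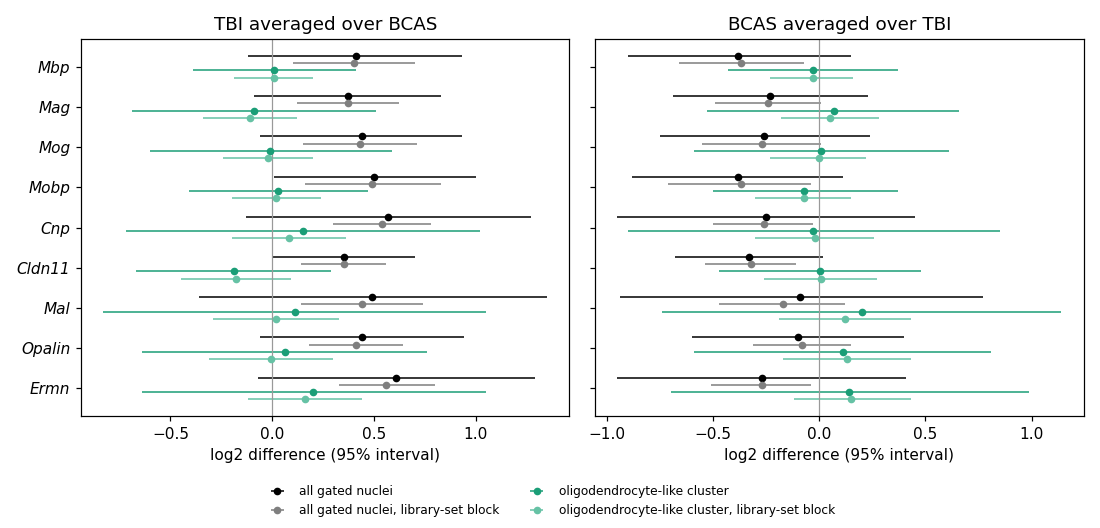
Log2 differences with 95% intervals for TBI averaged over BCAS (left) and BCAS averaged over TBI (right), for each gene in all gated nuclei and in the oligodendrocyte-like cluster, without and with the library set as a block. The values for all gated nuclei lie to the right of 0 for TBI and to the left for BCAS; those of the cluster lie on either side of 0.

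The share of nuclei that passed the gate was 9.17% ± 1.49 (SD, n = 4) without TBI and 7.41% ± 2.98 (SD, n = 4) with it. The difference of -1.76 points had an exact permutation p of 0.429 (two-sided, 70 assignments). Without TBI 2 it was -0.304 points. For BCAS the shares were 7.62% ± 3.15 (SD, n = 4) without and 8.95% ± 1.43 (SD, n = 4) with it, a difference of 1.33 points with an exact permutation p of 0.600. Without TBI 2 this difference was -0.199 points. Fewer oligodendrocytes in the tissue and fewer recovered nuclei cannot be told apart.

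Other genes of the myelin programme gave the same picture, with no listed gene past the threshold in any contrast of the gate. In cluster oligodendrocytes, 4 of 10 myelin lipid synthesis genes were above 0 for TBI (median -0.05) and 5 of 10 axon-glia contact genes (median 0.02), against 50.3% of all genes. Among transcription factors, Myrf, which switches on myelin genes, stood at 0.36 ± 0.16 in all gated nuclei and -0.27 ± 0.21 in the cluster. Sox10, the lineage factor, stood at 0.50 ± 0.24 in all gated nuclei and 0.16 ± 0.28 in the cluster. Klk6, a protease of a mature subtype, had 1.19 ± 0.44 (unadjusted p = 0.0254, edgeR) and then 0.54 ± 0.49 in the cluster. Of reactive genes, C4b (complement) had 0.76 ± 0.36 and 0.72 ± 0.64, and Serpina3n (a serine protease inhibitor) 0.75 ± 0.44 and 1.05 ± 0.66. For BCAS, Klk6 had 0.20 ± 0.44 in all gated nuclei and 0.97 ± 0.48 in the cluster. C4b had 0.12 ± 0.36 and then 0.87 ± 0.64, and Serpina3n -0.05 ± 0.44 and then 0.27 ± 0.67. With the set block the cluster gave 1.03 ± 0.33 for Klk6 (unadjusted p = 0.00536, adjusted p = 0.817, edgeR) and 0.80 ± 0.34 for C4b (unadjusted p = 0.0285, edgeR). For TBI that fit gave 0.51 ± 0.33 and 0.74 ± 0.34. For BCAS, Anln, a septin-binding protein of myelin, had -0.59 ± 0.25 (unadjusted p = 0.0408, edgeR) and Hapln2, a matrix link protein of nodes, -0.47 ± 0.20 (unadjusted p = 0.0437) in all gated nuclei. Sox8, another factor of the lineage, had -0.44 ± 0.17 (unadjusted p = 0.0311). In the cluster these were -0.02 ± 0.19 for Anln, -0.10 ± 0.22 for Hapln2 and -0.20 ± 0.22 for Sox8. Every adjusted p here was 1.000, apart from the 0.817 of Klk6. The cluster values of Klk6, C4b and Serpina3n rest on 102, 172 and 46 UMIs over the 8 libraries.

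The library sets separated the myelin genes where the surgeries did not. In cluster oligodendrocytes 7 of the 9 members were called lower in set 2 than in set 1, beside 13.9% of 8013 genes called lower and 10.5% called higher. Mal was lower by a log2 difference of -1.13 ± 0.15 (SE, adjusted p = 1.07e-05, edgeR), with 1385 to 2148 CPM in set 1 and 672 to 1084 in set 2. Cnp was lower by -1.08 ± 0.14 (adjusted p = 5.44e-06), with 475 to 685 against 257 to 283 CPM. Ermn was lower by -1.04 ± 0.13 (adjusted p = 7.86e-06), with 461 to 602 against 211 to 318 CPM. For these 3 genes the sets do not overlap, and other members, such as Mag in the values given above, share this. How many of all genes have sets that do not overlap was not counted. Opalin (-0.75), Mog (-0.64), Mag (-0.63) and Mobp (-0.29) were also called lower, Cldn11 had -0.30 (adjusted p = 0.0842), and Mbp had -0.03 ± 0.09 with an interval of -0.23 to 0.17. Mbp and Mal thus differ in the same nuclei, the first with an interval around 0 and the second lower by over a log2 unit; the difference between them was not tested. In all gated nuclei Cnp, Mal, Ermn, Opalin and Mag were called lower, from -0.98 to -0.32, beside 19.2% of 16254 genes called lower and 16.8% called higher.

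Some genes of the fixed lists moved in the same contrast. In cluster oligodendrocytes Ptgds (prostaglandin D synthase) was lower in set 2 by -2.05 ± 0.15, Cd9 (a tetraspanin) by -1.42 ± 0.15, Trf (transferrin) by -1.26 ± 0.17 and Sox10 by -0.70 ± 0.13, while Zeb2, a transcription factor, was higher by 0.48 ± 0.10. Of 20 other myelin and membrane genes 6 were called lower and none higher, beside 13.9% and 10.5% of 8013 genes. Of tested mature subtype genes 6 of 9 were lower and 1 higher, and of transcription factors 3 of 10 and 1. Of lipid synthesis genes 2 of 10 were lower, of axon-glia contact genes 1 of 10, and of newly formed oligodendrocyte genes 0 of 4. Of 4 reactive genes 1 was lower and 1 higher. The sets were drawn from total UMIs, and set 2 also has the lower mitochondrial share; depth, mitochondrial share and set cannot be told apart.

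**Figure D3:**
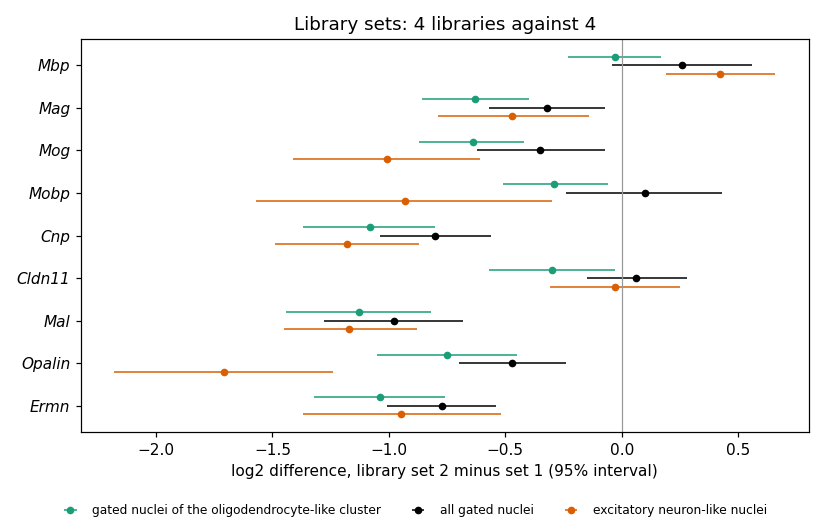
Log2 difference of library set 2 minus set 1 with 95% intervals, for each gene in gated nuclei of the oligodendrocyte-like cluster, in all gated nuclei and in excitatory neuron-like nuclei; each set has 4 libraries. Mal, Cnp and Ermn lie left of 0 in all 3 groups of nuclei, and Mbp lies right of 0 in excitatory neuron-like nuclei.

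Outside the gate the myelin genes were found at a low level in every class of nuclei. Free RNA in the droplets is known to give all classes a like level per nucleus. Per 1000 nuclei, Mag had 15.1 to 54.1 UMIs over 11 other classes, Mog 22.8 to 38.8, Mobp 32.3 to 67.6, Opalin 6.45 to 19.4 and Ermn 7.76 to 23.6, against 3308, 2964, 3228, 950 and 848 in the gate. Excitatory neuron-like nuclei, with a median of 6367 UMIs, had 31.1 Mag UMIs per 1000, and astrocyte-like nuclei, with 1874, had 39.9. Mural-like nuclei, the shallowest of these classes with a median of 871 UMIs, had the lowest Mag (15.1), Mobp (32.3) and Opalin (6.45). How far these levels go with depth over the classes was not tested. Cnp had 38.7 UMIs per 1000 mural-like nuclei and up to 88.4 in the other classes. Of all Cnp UMIs in kept nuclei, 45.7% lay in the gate and 38.6% outside the gate, the oligodendrocyte-like cluster and the mixed clusters; for Mog these shares were 72.0% and 9.19%. Cnp made up 3.59% of the UMIs of the 9 genes in cluster oligodendrocytes and 16.6% in astrocyte-like nuclei.

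Mal, Cldn11 and Mbp departed from this common level in some classes. Mal, the proteolipid gene, had 394 UMIs per 1000 endothelial-like nuclei, against 92.5 in mural-like, 121 in fibroblast-like and 107 in microglia-like nuclei. In CPM Mal stood at 336 and 327 in the endothelial-like nuclei of the control libraries, 398 and 286 in BCAS, 328 and 260 in TBI, and 226 and 291 in BCAS+TBI. Every library lay above the astrocyte-like level, which was 28.2 to 84.0 CPM. At least 1 Mal UMI was found in 26.9% of endothelial-like nuclei (median depth 1024 UMIs) and in 8.75% of excitatory neuron-like nuclei (6367 UMIs); thinned to 1000 UMIs a nucleus the shares were 25.1% of 603 nuclei and 1.84% of 17842. Per nucleus, the level in endothelial-like nuclei exceeded that of excitatory neuron-like nuclei by 2.02 ± 0.48 on the log2 scale (SD, n = 8, pseudocount 0.001), higher in 8 of 8 libraries. The exact sign-flip permutation p of 0.00781 is the smallest that 8 libraries allow, and its adjusted value over 90 pairs of class and gene was 0.0703, which misses 0.05 (0% of the 90 pairs passed). On the CPM scale the same test gave 4.36 ± 0.60 with an adjusted p of 0.0213, where 41.1% of the pairs passed; 36 of those 37 pairs were higher than in excitatory neuron-like nuclei, which have the most UMIs per nucleus. Mal made up 55.2% of the UMIs of the 9 genes in endothelial-like nuclei and 11.2% in cluster oligodendrocytes. Ependymal-like nuclei also had more Mal than most, with 230 UMIs per 1000.

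Cldn11 had 271 UMIs per 1000 fibroblast-like nuclei, against 46.6 to 70.9 in the other classes outside the gate. Within this class the level was uneven. A cluster of 231 nuclei led by Bnc2 and Slc47a1 had 267 CPM (155 to 523 over libraries), and a cluster of 696 nuclei led by Ranbp3l and Slc6a20a had 57.7 CPM (40.3 to 104). The lowest library of the former lies above the highest of the latter. Claudin-11 is known at tight junctions of the arachnoid barrier of the meninges as well as in myelin. Over the whole class the excess per nucleus over excitatory neuron-like nuclei was 2.23 ± 0.46 on the log2 scale (SD, n = 8), higher in 8 of 8 libraries, with an exact sign-flip permutation p of 0.00781 and an adjusted p of 0.0703; on the CPM scale it was 3.75 ± 0.57 with an adjusted p of 0.0213.

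The start regions of Mal and Cldn11, which show levels outside oligodendrocytes, are printed beside those of Mag and Opalin, which stayed at the common level. Each is the 250 bases before the RefSeq start (GRCm38.p6), in the direction of the gene, at chr2:127656696-127656945 (minus strand), chr3:31149670-31149919 (plus), chr7:30914864-30915113 (minus) and chr19:41077114-41077363 (minus). Capitals mark matches on either strand to 3 motifs, any of which may overlap. The first motif, CTGGCAC, resembles the site of MYRF. The second, AACAAT, resembles a SOX factor site. The third, ACAAAG, is another SOX-like motif.
Mal: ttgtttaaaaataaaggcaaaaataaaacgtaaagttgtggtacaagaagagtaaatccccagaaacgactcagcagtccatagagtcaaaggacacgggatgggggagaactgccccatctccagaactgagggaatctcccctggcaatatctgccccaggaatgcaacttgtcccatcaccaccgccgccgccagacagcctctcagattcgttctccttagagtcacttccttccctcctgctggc
Cldn11: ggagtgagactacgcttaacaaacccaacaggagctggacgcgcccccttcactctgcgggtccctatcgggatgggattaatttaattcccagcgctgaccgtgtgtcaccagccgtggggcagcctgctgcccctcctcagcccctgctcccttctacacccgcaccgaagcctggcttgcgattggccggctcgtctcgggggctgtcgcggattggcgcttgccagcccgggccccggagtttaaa
Mag: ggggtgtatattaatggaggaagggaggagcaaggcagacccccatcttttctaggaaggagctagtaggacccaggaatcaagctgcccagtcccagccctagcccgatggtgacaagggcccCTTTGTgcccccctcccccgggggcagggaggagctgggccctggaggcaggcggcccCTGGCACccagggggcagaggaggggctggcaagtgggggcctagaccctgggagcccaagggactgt
Opalin: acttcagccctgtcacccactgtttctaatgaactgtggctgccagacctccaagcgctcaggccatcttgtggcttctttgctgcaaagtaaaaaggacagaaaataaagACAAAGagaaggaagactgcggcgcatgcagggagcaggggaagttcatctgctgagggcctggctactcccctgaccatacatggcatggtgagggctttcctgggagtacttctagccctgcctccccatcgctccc
None of the 3 motifs is in the Mal and Cldn11 windows, nor in those of Mog and Ermn, which were at the common level, so presence of a motif does not separate the members by their level outside the gate. Over the 10 windows of the 8 members in the RefSeq table (Mag has 3, which overlap in part), 3 hold CTGGCAC, 0 hold AACAAT and 5 hold ACAAAG. Among all 32851 windows the shares are 4.19%, 9.42% and 16.5%. The Mag windows that overlap hold the same CTGGCAC site and the same ACAAAG site, so each of these sites is counted more than once. The matches are letters in a window and not measured binding.

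Mbp had more UMIs per nucleus in neurons of some kinds, a direction that rests on the scale for most classes. It had 454 UMIs per 1000 excitatory neuron-like nuclei and 383 in striatal projection neuron-like nuclei, against 186 in inhibitory neuron-like nuclei of similar depth (median 5786 UMIs) and 83.9 to 268 in the other classes. At least 1 Mbp UMI was found in 29.5% of excitatory and 14.9% of inhibitory neuron-like nuclei; thinned to 1000 UMIs these shares were 5.77% and 3.04%, and they were 4.56% to 9.11% in the other classes outside the gate, highest in microglia-like nuclei (9.11%) and then in choroid plexus-like (8.54%). The level per nucleus in inhibitory neuron-like nuclei was below that of excitatory ones in 8 of 8 libraries, by -1.20 ± 0.47 on the log2 scale (SD, n = 8), with an exact sign-flip permutation p of 0.00781 and an adjusted p of 0.0703; on the CPM scale it was -0.97 ± 0.43, with an adjusted p of 0.0213. Striatal projection neuron-like nuclei differed from excitatory ones by -0.17 ± 0.41 per nucleus (exact sign-flip permutation, adjusted p = 0.539). On the CPM scale Mbp was higher in microglia-like than in excitatory neuron-like nuclei, by 0.72 ± 0.70 in 8 of 8 libraries (exact sign-flip permutation, adjusted p = 0.0213), where it had been lower by -1.67 ± 0.91 per nucleus. The sign also turned, with no call on the CPM scale, in choroid plexus-like (0.54), endothelial-like (0.30), striatal projection neuron-like (0.24), precursor-like (0.20), mural-like (0.14) and fibroblast-like nuclei (0.07). It did not turn in inhibitory neuron-like, astrocyte-like (-0.12) and ependymal-like nuclei (-0.39). The mix of the 9 genes also differed: Mbp made up 55.9% of their UMIs in excitatory neuron-like nuclei, 37.5% in cluster oligodendrocytes and 24.0% in astrocyte-like nuclei. The Mbp locus is known for longer transcripts, called Golli, that are made in neurons, and the 3′ counts do not separate these from myelin MBP transcripts.

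Among the excitatory neuron-like clusters Mbp ranged over 25.5 to 105 CPM and Mag, at a lower level, over 2.27 to 8.96. In relative terms these ranges are of like width. The highest cluster, led by Hs3st2 and Il1rapl2, had 83.8 and 138 Mbp CPM in control, 62.3 and 86.4 in BCAS, 79.5 and 119 in TBI, and 101 and 114 in BCAS+TBI. A cluster led by Prox1 and Glis3 had 95.5 CPM (75.2 to 119 over libraries). The lowest, led by Prkcd and Lef1, had 33.5 and 36.7 CPM in control, 29.2 and 21.7 in BCAS, 35.5 and 16.9 in TBI, and 24.6 and 10.7 in BCAS+TBI. Every library of the lowest cluster lies below every library of the first 2. The highest and lowest clusters were picked by their Mbp level, so this separation follows in part from the choice. How many of all genes separate these clusters in every library was not counted. The members were left out of the clustering, which does not undo that choice by Mbp level. Mag in these same 3 clusters was 2.94, 6.24 and 3.84 CPM.

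**Figure D4:**
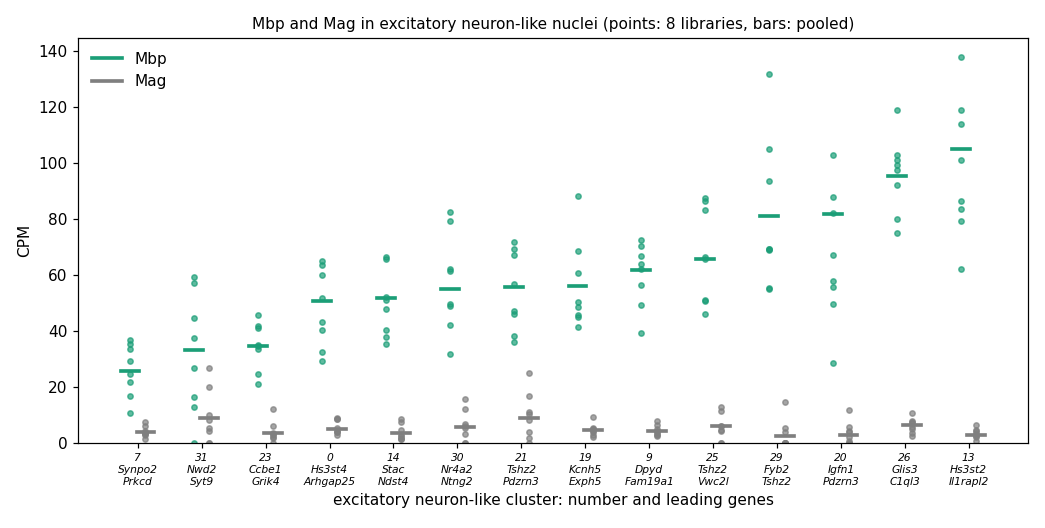
Mbp (green) and Mag (grey) CPM in each excitatory neuron-like cluster, ordered by Mbp; points are the 8 libraries and bars the pooled level, and the labels give cluster numbers and leading genes. Mbp climbs from 25.5 to 105 CPM across clusters. Pooled Mag lies lower, up to 8.96, and the linear axis does not show its relative spread.

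**Figure D5:**
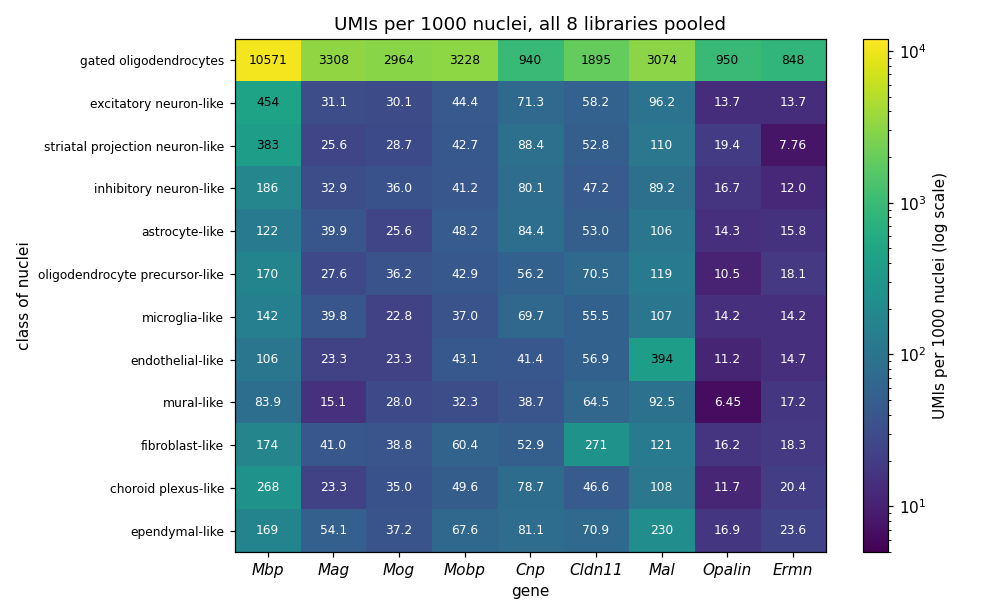
UMIs per 1000 nuclei of each gene (columns) in gated oligodendrocytes and 11 other classes (rows), pooled over 8 libraries, with colour on a log scale. The cells that stand out below the top row are Mbp in excitatory (454) and striatal projection neuron-like nuclei (383), Mal in endothelial-like nuclei (394) and Cldn11 in fibroblast-like nuclei (271).

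The level outside the gate, in classes at the common level and in those that departed from it, was not called different by surgery. Of 46 pairs of class and member with enough counts, none passed in any of the 5 contrasts (0% of 98079 pairs of class and gene passed in each), and at an unadjusted p under 0.05 stood 1 pair for TBI (1.23% of all pairs in edgeR), 1 for BCAS (1.16%), 1 for the interaction (0.976%), 1 for BCAS+TBI against control (1.06%) and 0 for BCAS+TBI against TBI (0.985%). For the library sets, 19 of the 46 pairs were called lower in set 2 and 1 was called higher, beside 18.6% called lower and 15.5% called higher among all pairs. The pair called higher is Mbp in excitatory neuron-like nuclei, at 0.42 ± 0.11 (SE, adjusted p = 0.0105, edgeR), where Opalin had -1.71 ± 0.21 (adjusted p = 0.000116) and Mal -1.17 ± 0.13 (adjusted p = 5.04e-05). Mbp there was at 49.4 to 69.6 CPM in set 1 and 51.2 to 78.2 in set 2, so the sets overlap, and the test compares libraries within groups. Mal was called lower in set 2 in 6 of the 9 other classes tested for it and Cnp in 5 of 6; endothelial-like nuclei, where Mal had -0.34 ± 0.19 (adjusted p = 0.176), were not among them. Without BCAS+TBI 1, 12 of 51 pairs were called lower in set 2.

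A small cluster of 137 nuclei led by Bcas1, Gpr17 and Enpp6, genes of oligodendrocytes at the start of myelination, was left unnamed because it carried markers of several stages. Pooled over libraries it had 1954 Mbp, 452 Mag and 334 Mog CPM, against 4187, 1281 and 1180 in cluster oligodendrocytes. Mal stood at 292 against 1247 CPM and Opalin at 100 against 392. Relative to cluster oligodendrocytes, the level of Mal was lower than that of Mbp in these nuclei; no test was made, as the cluster is small in every library. Oligodendrocyte precursor-like nuclei had 69.1 Mbp and 11.3 Mag CPM. Their Mag differed from excitatory neuron-like nuclei by -0.33 ± 0.64 per nucleus on the log2 scale (SD, n = 8). On the CPM scale it differed by 1.05 ± 0.60 (exact sign-flip permutation, adjusted p = 0.0213). For Mbp these differences were -1.35 ± 0.64 and 0.20 ± 0.58.

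By Pearson correlation of log2(CPM + 1) over 12 classes with the sum of the 9 members, the reported genes most like them among 3769 compared were Enpp6 (0.972), Qdpr (0.932), Rcbtb1 (0.923) and Hapln2 (0.905). These values describe 12 classes that share libraries and in which 1 class holds nearly all of the signal.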

How the data were processed

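Single-nucleus 3′ RNA libraries from 8 samples (4 groups of 2) were deposited as matrices of raw UMI counts per gene and barcode. Per the file headers the authors counted them with Cell Ranger 7.0.0, and per the submitters' processing notes GRCm38/mm10 and Seurat were used; the role of each beyond that is not given in the sources used here. The members, gene lists and tests were chosen with earlier results of these data known.

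Nuclei needed 500 UMIs and 300 detected genes or more, with a mitochondrial share of no more than 5%, and the 6% of each library with the highest Scrublet doublet scores were removed. They were clustered (scanpy 1.11.5, igraph 0.11.9, 3000 variable genes, 30 components, resolution 1) without the members and named from listed markers, with the rest left unnamed, so the names are rebuilt and not the authors'. UMIs were summed per library and class, and CPM are counts per 1000000 UMIs of that sum. Classes of 20 or more nuclei in each library, which leaves out ependymal-like nuclei, were tested with edgeR 4.0.16 (R 4.3.3, TMM, quasi-likelihood F-test, filter at a minimum count of 10) over all 8 libraries, with Benjamini-Hochberg adjustment over all 98079 pairs of class and gene in each contrast and a threshold of 0.05. Levels per class were compared with exact sign-flip tests over the 8 libraries and gate shares with exact permutation tests (scipy 1.17.1). The edgeR fit was tested on simulated counts of gated oligodendrocytes, for TBI averaged over BCAS, with and without the library-set block. The other classes, contrasts and tests were not simulated.

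The text names the members and gate genes, up to 2 genes per list with the smallest p for each averaged surgery, markers of a class, and the 5 genes most like the members, of which 1 is not reported here. Ptgds, Cd9, Trf and Zeb2 in the library-set comparison, the excitatory neuron-like clusters highest and lowest in Mbp and the unnamed cluster of 137 nuclei were chosen after their values were seen. Alternatives were 25 listed settings, among them DESeq2 1.42.0, other normalization, filters and gates, blocks, thinning and leaving out each library, and 10 chosen after seeing the data, which join the cluster or depth limit with the library-set block.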

Additional observations from a re-analysis of the deposited data

Results flagged for a closer look

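In sets of 4 libraries (with or without each surgery), a value was singled out when its gap to the nearest of the other libraries, divided by the whole range, exceeded Dixon's 95% critical value. Of 76 sets examined 3 had such a value, and chance gives about 1 in 20. In all gated nuclei of the libraries with TBI, BCAS+TBI 1 had 386 Mag CPM against 591 to 628 in the other libraries, a gap of 0.847 of the range. In the same libraries BCAS+TBI 1 had 336 Mog CPM against 566 to 587, a gap of 0.916. In all gated nuclei of the libraries with BCAS, BCAS+TBI 2 had 569 Mobp CPM against 357 to 386, a gap of 0.863.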

How the results depend on the processing

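No member was called in any of 269 alternative fits of the surgery contrasts, but the signs of these uncalled log2 differences moved: 46 of 297 alternative values for TBI and 69 of 297 for BCAS had the opposite sign. Within the oligodendrocyte-like cluster TBI gave -0.09 for Mag, -0.01 for Mog and -0.19 for Cldn11; with the library-set block as well -0.11, -0.02, -0.18 and, for Opalin, -0.005; and in the cluster without the gate -0.09 for Mag and -0.20 for Cldn11. For BCAS the cluster gave 0.07 for Mag, 0.01 for Mog, 0.003 for Cldn11, 0.20 for Mal, 0.11 for Opalin and 0.14 for Ermn; with the set block 0.05 for Mag, 0.01 for Cldn11, 0.12 for Mal, 0.13 for Opalin and 0.15 for Ermn; and without the gate 0.04, 0.19, 0.14 and 0.14 for Mag, Mal, Opalin and Ermn. BCAS also gave Opalin 0.02 with doublets kept and 0.01 after thinning, Mal 0.05 with gate genes at 2000 CPM, and 0.03 for Mal, 0.04 for Opalin and 0.03 for Ermn once nuclei above 3 times their class's median depth were left out. The cause was not tested.

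Leaving out each library in turn, in the whole gate and in the cluster with the set block, TBI gave ranges of -0.31 to 0.40 for Cldn11, -0.05 to 0.81 for Cnp, -0.20 to 0.50 for Mag, -0.24 to 0.82 for Mal, -0.02 to 0.55 for Mbp, -0.04 to 0.65 for Mobp, -0.09 to 0.60 for Mog and -0.21 to 0.62 for Opalin. BCAS gave -0.37 to 0.13 for Cldn11, -0.57 to 0.11 for Cnp, -0.60 to 0.29 for Ermn, -0.37 to 0.15 for Mag, -0.54 to 0.41 for Mal, -0.53 to 0.003 for Mbp, -0.44 to 0.06 for Mog and -0.30 to 0.35 for Opalin. The BCAS difference in gated share ranged from -0.199 to 2.03 points. The members called lower in set 2 in cluster oligodendrocytes numbered 6 to 7, and 5 over all gated nuclei; the pairs of other classes called lower numbered 12 to 19.

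In the comparison of classes with excitatory neuron-like nuclei, 37 of 90 pairs passed on the CPM scale and 0 on the scale of UMIs per nucleus. Per nucleus, pairs at the smallest p that 8 libraries allow (0.00781, exact sign-flip permutation) had an adjusted p of 0.0703. The 0 there thus reflects this floor and the number of pairs. On the CPM scale the Mbp log2 ratio turned from below 0 to 0.72 in microglia-like, 0.54 in choroid plexus-like, 0.30 in endothelial-like, 0.24 in striatal projection neuron-like, 0.20 in precursor-like, 0.14 in mural-like and 0.07 in fibroblast-like nuclei. Against inhibitory in place of excitatory neuron-like nuclei, the Mbp ratio per nucleus was 0.51 in choroid plexus-like and 1.03 in striatal projection neuron-like nuclei. Over all pairs of class and gene, calls for TBI, BCAS, the interaction, BCAS+TBI against control and BCAS+TBI against TBI were 0 in each; they were 40, 131, 31, 70 and 41 with no count filter and 4, 91, 0, 46 and 31 with the set block. Leaving out BCAS+TBI 1 gave 17 for BCAS+TBI against control, and leaving out BCAS+TBI 2 gave 3 for the interaction. With the replicate number as a block, members had 0.35 to 0.64 for TBI and -0.39 to -0.05 for BCAS and 0 were called; deviations of same-numbered libraries correlated at 0.857, 0.589 and 0.572 among control, BCAS and TBI and at -0.842, -0.878 and -0.506 with BCAS+TBI over 4005 genes, so the numbers do not pair the libraries. With 2 libraries a group, and 1060 to 3381 UMIs of Mbp but fewer of other members per library in the cluster, small differences were not detectable.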
